A study of Homo sapiens with 6 samples.

Results

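Nuclear receptors are transcription factors that bind DNA and, in many cases, a small lipophilic ligand. The set described here holds 39 of the human nuclear receptor genes, taken by gene symbol, of 20289 genes measured. It leaves out the hepatocyte core receptors HNF4A and NR5A2. Of these 39 genes, 36 had enough reads to be tested, as did 13265 genes in all. The knockout group was 3 Huh7 libraries labelled as UBE2S knockout, and 3 wild-type Huh7 libraries were set against it. Huh7 is a cell line from a human liver cancer. UBE2S encodes an E2 enzyme that extends ubiquitin chains for the anaphase-promoting complex, and the study looked for genes downstream of it. The labels name no other agent, allele or time and do not tell how the knockout was made, whether it is 1 clone, or if replicates came from different cultures. A p-value here therefore reflects library-to-library spread, possibly technical.

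Most of these receptors act at DNA half-sites, alone, as homodimers, or as heterodimers with a retinoid X receptor (RXR). In the liver, heterodimers of RXR with the liver X, farnesoid X, pregnane X and peroxisome proliferator-activated receptors sense sterols, bile acids, drugs and fatty acids. Unliganded receptors commonly recruit corepressors and liganded receptors coactivators. The orphan receptors REV-ERB and ROR compete for shared sites in the circadian clock, where REV-ERB represses and ROR activates.

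UBE2S mRNA checked the labels, with 47.6, 45.4 and 44.2 CPM (depth-scaled counts, with TMM scaling between libraries) in knockout libraries, against 234, 220 and 216 CPM in wild-type libraries. Library totals were 21840499 to 25840104 estimated counts in the knockout and 23300336 to 27910396 in wild type. The 8 hepatocyte markers all had counts, with AFP at 11520 CPM in the knockout and 12610 CPM in wild type. Of 19 markers of other cell types, the immune marker CD3E and the endothelial marker KDR were at 0 counts in every library and KRT7, a bile duct marker, had 1 count in all. Summed over each list, immune markers were at 179 to 182 CPM in the knockout and 290 to 313 CPM in wild type, nearly all of it LYZ. Endothelial markers were at 2.23 to 2.52 CPM in the knockout and 5.51 to 6.82 CPM in wild type, stromal markers at 20.4 to 21.7 and 12.3 to 12.7 CPM, and bile duct markers at 277 to 284 and 309 to 335 CPM. Single markers went against these sums: the stromal marker LUM averaged 0.236 CPM in the knockout and 0.982 CPM in wild type, and the bile duct marker SPP1 17.9 and 2.91 CPM. The part of these markers in the results was not tested. In bulk RNA, fewer cells of a type and less RNA per cell cannot be told apart. Wild-type replicate 1 stood apart: its counts differed from those of its 2 fellow libraries with chi-square values of 8.37 and 10.9 per degree of freedom, while those 2 differed by 1.79. Without it, 10 receptors were called higher and 13 lower, against 10 and 12 with it.

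In the knockout, 10 of the 36 tested receptors rose and 12 fell at an edgeR adjusted p below 0.05, the threshold used throughout for a call. That is 61.1% of those tested, near the 60.1% of all tested genes that were called. In CPM, the knockout and wild-type libraries did not overlap at 22 of the 36 receptors and at 65.8% of all tested genes. By direction, 29.4% of all tested genes were called higher and 30.7% lower. The largest fall was that of the vitamin D receptor gene VDR, and the largest rise that of the retinoic acid receptor gene RARG. Among abundant members, the orphan receptor gene NR2F6 and the clock receptor gene NR1D2 rose about 1.5-fold, and the thyroid hormone receptor gene THRB fell to 67.9% of its wild-type level. The median log2 fold change of the 36 was 0.03, against 0.00 for all tested genes, and the median absolute change was 0.35, against 0.23. A call with an absolute log2 fold change of at least 0.5 was made at 7 receptors and at 18.9% of all tested genes. Past a change of 1 there were 2 receptors, VDR and PGR, and 6.14% of all tested genes.

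**Figure D1:**
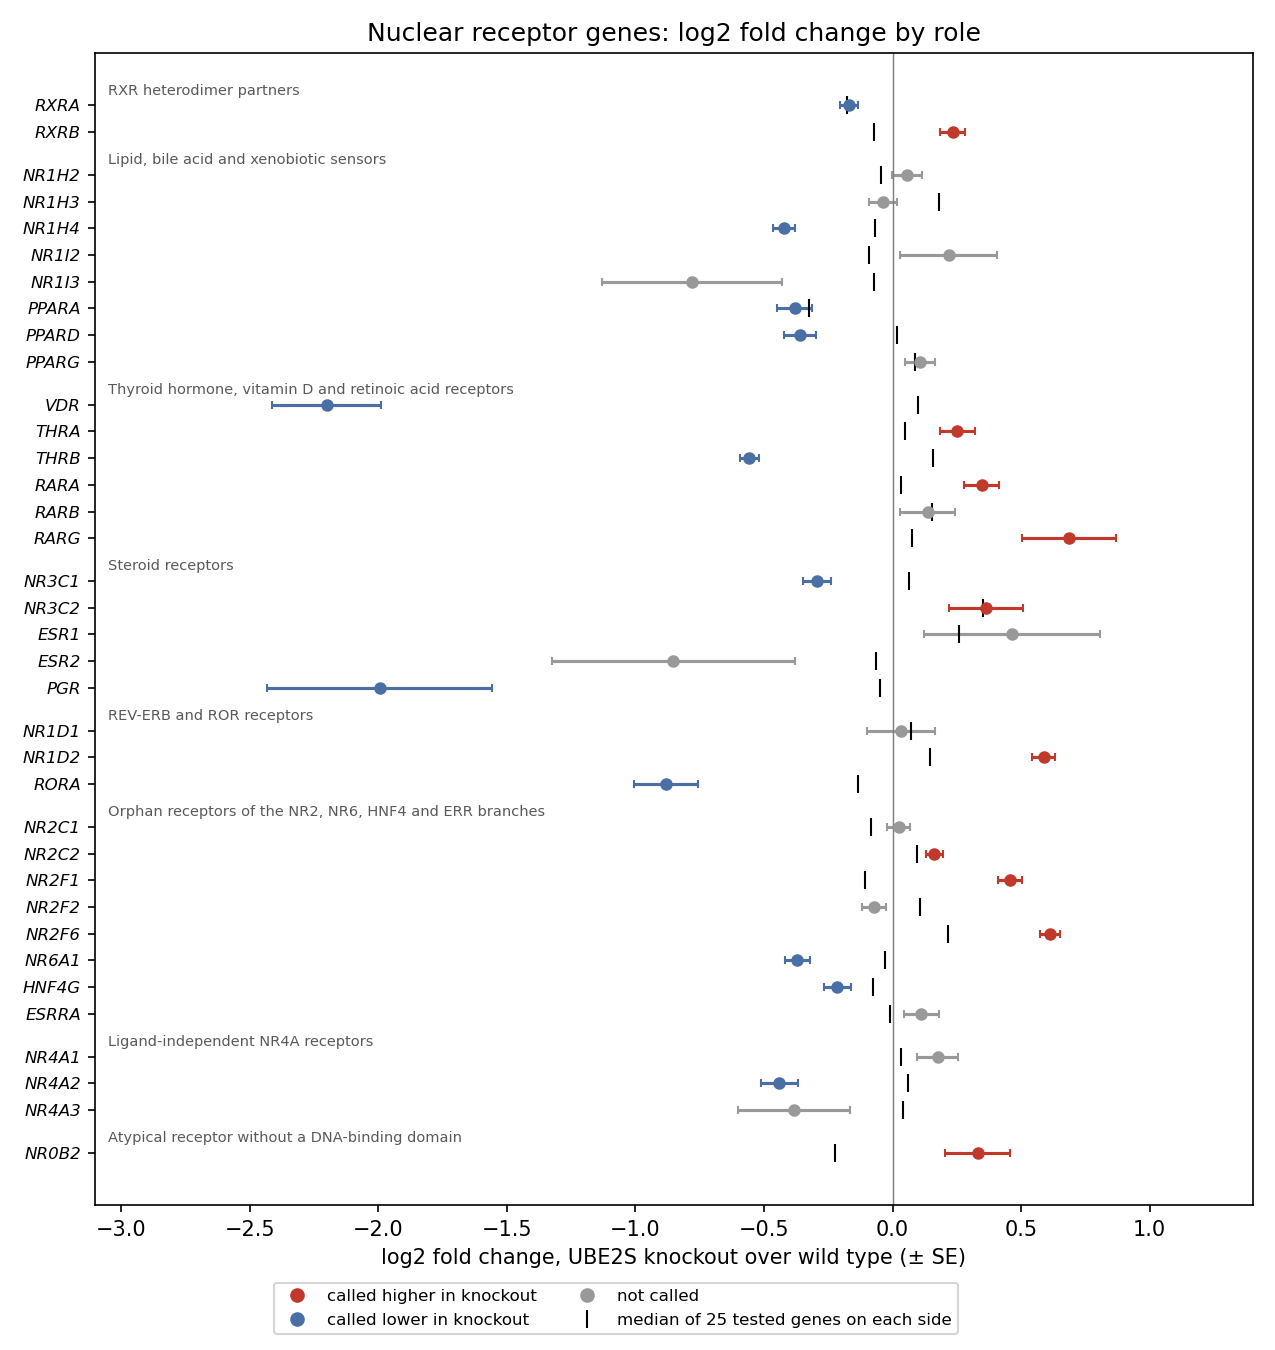
Log2 fold change of the 36 tested receptors, knockout over wild type, with standard errors, grouped by role. Red points were called higher, blue lower and grey not called, and the black bar is the median log2 fold change of the 25 tested genes on each side on the chromosome. VDR (-2.20) and PGR (-2.00) stand furthest to the left, and RARG (0.69) furthest to the right.

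Levels between genes were compared as CPM per kilobase of the longest transcript in GENCODE release 29. On that scale NR2F6 was the most abundant receptor, with 96.4 in the knockout and 63.1 in wild type, and RXRA followed with 20.3 and 22.8. NR1H4 held the 7th place in the knockout and the 3rd in wild type, while NR2F1 held the 3rd and the 6th. THRB held the 14th place in the knockout and the 10th in wild type. The 3 receptors left untested were near the limit of detection. RXRG had 2, 1 and 1 counts in knockout libraries and 0 in each wild-type library. RORB had 13 counts in the knockout and 6 in wild type, and ESRRG 12 and 16. Summed over all 39 genes, receptor mRNA was 1160 ± 11.2 CPM in the knockout and 1106 ± 10.3 CPM in wild type (SD, n = 3 each). Those groups did not overlap, and the exact permutation test gave p = 0.1, two-sided, the smallest it can give with 3 against 3. Without NR2F6, a split chosen after its values were seen, the sum was 928 ± 3.72 CPM in the knockout and 955 ± 6.35 CPM in wild type, so that 1 gene set the direction of the sum.

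RefSeq windows from 250 bases before to 50 after a transcript start (GRCh38.p14) were found for 34 of the 39 genes. They were searched on both strands for AGGTCA, the consensus half-site of many nuclear receptors, and CACGTG, the E-box bound by CLOCK and its partner. AGGTCA was in 15.5% of the 84 receptor windows and in 13.8% of all 35116 windows, and CACGTG in 9.52% and 7.26%. AGGTCA was in 1 of 16 windows of receptors called higher, 1 of 20 of those called lower, 8 of 37 of those not called and 3 of 11 of those not tested. CACGTG was in 2, 2, 4 and 0 of the same windows. Windows of a gene can overlap and hold the same site, so these window counts are not independent. By gene, AGGTCA was in 8 of the 34 and CACGTG in 6. No background by gene was computed, and a gene with more windows has more chances of a match. The windows printed are those of NR1D2, NR1H4 and RARA that held a match, shown because these genes are called members with either motif near a start. They are written 5′ to 3′ on the gene's strand with the match in capitals. Positions count from the start, with 1 its first base and -1 the base before it. The NR1D2 window holds CACGTG at -155 and -105, the NR1H4 window AGGTCA at -230 on the opposite strand (read as TGACCT), and the RARA windows AGGTCA at -230 and CACGTG at 34. PGR, another called member, is not printed and had CACGTG at 44 and 30 in its overlapping windows.
NR1D2, chr3:23945871-23946170, plus strand: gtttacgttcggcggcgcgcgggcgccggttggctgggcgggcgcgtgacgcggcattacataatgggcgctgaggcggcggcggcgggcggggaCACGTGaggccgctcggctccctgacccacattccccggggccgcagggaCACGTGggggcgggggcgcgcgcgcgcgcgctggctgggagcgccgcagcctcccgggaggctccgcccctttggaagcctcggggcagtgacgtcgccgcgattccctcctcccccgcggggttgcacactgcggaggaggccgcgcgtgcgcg
NR1H4, chr12:100503110-100503409, plus strand: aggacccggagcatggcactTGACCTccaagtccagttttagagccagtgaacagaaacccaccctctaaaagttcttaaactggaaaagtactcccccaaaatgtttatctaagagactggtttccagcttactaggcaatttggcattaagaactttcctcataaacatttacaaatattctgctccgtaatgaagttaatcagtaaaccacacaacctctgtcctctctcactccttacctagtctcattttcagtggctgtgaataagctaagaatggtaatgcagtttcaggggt
RARA, chr17:40308930-40309229, plus strand: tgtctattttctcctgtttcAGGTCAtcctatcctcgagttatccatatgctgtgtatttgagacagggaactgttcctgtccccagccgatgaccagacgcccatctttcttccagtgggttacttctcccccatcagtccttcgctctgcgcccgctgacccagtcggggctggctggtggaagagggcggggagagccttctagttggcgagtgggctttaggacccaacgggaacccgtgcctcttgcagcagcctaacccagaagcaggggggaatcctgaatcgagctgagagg
RARA, chr17:40317995-40318294, plus strand: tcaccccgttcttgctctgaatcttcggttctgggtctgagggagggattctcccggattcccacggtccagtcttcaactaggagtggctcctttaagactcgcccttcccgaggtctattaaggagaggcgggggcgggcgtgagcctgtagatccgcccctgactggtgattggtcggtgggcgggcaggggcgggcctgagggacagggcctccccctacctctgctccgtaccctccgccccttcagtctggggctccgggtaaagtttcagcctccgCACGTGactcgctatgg
A match describes these letters and not a bound site.

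The RXR partners moved in opposite directions. RXRA, the main partner, had 116, 116 and 119 CPM in knockout libraries, against 126, 135 and 134 CPM in wild-type libraries. The groups did not overlap, and its log2 fold change was -0.17 (SE 0.03 and edgeR adjusted p = 0.0011). That value lay at the median of its chromosome 9 neighbours (-0.18), and with the shift of the neighbours removed RXRA was at 0.01 (edgeR adjusted p = 0.88). RXRB had 29.6, 29.3 and 28.6 CPM in the knockout, against 24.4, 24.8 and 25.2 CPM in wild type, or 0.23 on the log2 scale (SE 0.05), while its neighbours on chromosome 6 were at -0.07. Its gene overlaps SLC39A7 on the opposite strand by 244 bases. Each knockout library thus held more RXRB and less RXRA than each wild-type library.

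Among the 8 sensors of sterols, bile acids, drugs and fatty acids, 3 fell and 0 rose. Over all tested genes 60.1% were called and 30.7% were called lower, against 37.5% called here. NR1H4, the farnesoid X receptor (FXR) for bile acids, had 34.7, 35.6 and 35.8 CPM in knockout libraries, against 48.4, 48.3 and 45.5 CPM in wild-type libraries. Every knockout library lay well below every wild-type library, and the log2 difference was -0.42 (SE 0.04 and edgeR adjusted p = 4.0e-06). PPARA, the fatty acid receptor that drives fat oxidation in liver, had 21.4, 18.6 and 18.6 CPM in the knockout, against 24.3, 27.1 and 24.8 CPM in wild type. Its log2 fold change was -0.38 (SE 0.07), but its neighbours on chromosome 22 had a median of -0.33, and with that shift removed PPARA was at -0.05 (edgeR adjusted p = 0.53). PPARD, the more widely expressed isotype, had 22.01, 21.3 and 19.0 CPM in the knockout, against 25.9, 26.1 and 27.7 CPM in wild type. Here the neighbours were at 0.02 and the log2 fold change at -0.36 (SE 0.06). PPARG, best known for its part in fat cells, was not called, at 32.3 ± 0.76 CPM in the knockout and 29.9 ± 2.19 CPM in wild type (SD, n = 3 each). Without wild-type replicate 1 it was called higher (0.17, edgeR adjusted p = 0.0051).

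The liver X receptors (LXR), which sense oxysterols, were not called: NR1H2 was at 0.06 (SE 0.06) and NR1H3 at -0.04 (SE 0.05) on the log2 scale. NR1H3 lay among neighbours with a median of 0.18 and was called lower relative to them (-0.22, edgeR adjusted p = 0.0048). The drug sensors were scarce. NR1I2, the pregnane X receptor (PXR), had 33, 33 and 39 counts in knockout libraries, against 34, 31 and 34 in wild-type libraries. NR1I3, the constitutive androstane receptor (CAR), had 6, 13 and 9 counts in the knockout and 14, 20 and 19 in wild type. Its log2 fold change of -0.78 (SE 0.35 and edgeR adjusted p = 0.071) missed the threshold with all libraries and passed it without wild-type replicate 1 (edgeR adjusted p = 0.042), without knockout replicate 2 (0.039) and with the replicate number as a block (0.0495). NR1I3 also overlaps the more abundant TOMM40L on the opposite strand, which fell (-0.19).

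The largest change among the tested receptors was that of the vitamin receptor gene VDR. VDR, which binds the active form of vitamin D, had 14, 11 and 18 counts in knockout libraries, against 72, 73 and 73 in wild-type libraries. That is 0.60 ± 0.12 CPM in the knockout and 2.80 ± 0.29 CPM in wild type (SD, n = 3 each), or -2.20 on the log2 scale (SE 0.21 and edgeR adjusted p = 1.7e-06). The ratio of summed counts, knockout over wild type, was 0.217, with an exact 95% binomial interval of 0.153 to 0.302 that covers counting error alone. The gene spans chr12:47841537-47943048 (GRCh38, minus strand), and the median of its neighbours was 0.10.

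The thyroid hormone receptor genes went opposite ways. THRB, the main hepatic isotype, had 51.9, 50.2 and 51.8 CPM in knockout libraries, against 76.3, 76.5 and 73.9 CPM in wild-type libraries, or -0.56 on the log2 scale (SE 0.04 and edgeR adjusted p = 6.1e-08). THRA had 17.0, 16.2 and 16.4 CPM in the knockout, against 13.8, 14.9 and 13.0 CPM in wild type, or 0.25 on the log2 scale (SE 0.07 and edgeR adjusted p = 0.0061). Neither pair of groups overlapped. The tail of THRA shares 1081 bases on chromosome 17 with NR1D1 on the opposite strand, and counts of both genes held decimals in 4 of 6 libraries. THRA also shares 2926 bases with MED24 on the opposite strand. MED24 was more abundant, at 79.7 CPM in the knockout and 75.2 CPM in wild type, and was not called. No source used here says if strand was used in counting, so reads of such partners cannot be told apart.

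Of the retinoic acid receptors, 2 of 3 rose, where 29.4% of all tested genes were called higher and 60.1% either way. RARA had 21.1, 20.0 and 20.3 CPM in knockout libraries, against 17.6, 15.0 and 15.5 CPM in wild-type libraries, or 0.35 on the log2 scale (SE 0.07 and edgeR adjusted p = 7.0e-04). RARG, the least abundant isotype, had 57, 74 and 93 counts in the knockout, against 57, 35 and 61 in wild type, or 0.69 on the log2 scale (SE 0.18 and edgeR adjusted p = 0.006). In CPM its groups did not overlap, with 2.59 as the lowest knockout value and 2.18 as the highest in wild type. RARB, itself a classical retinoic acid target, was at 0.14 (SE 0.11) and was not called.

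**Figure D2:**
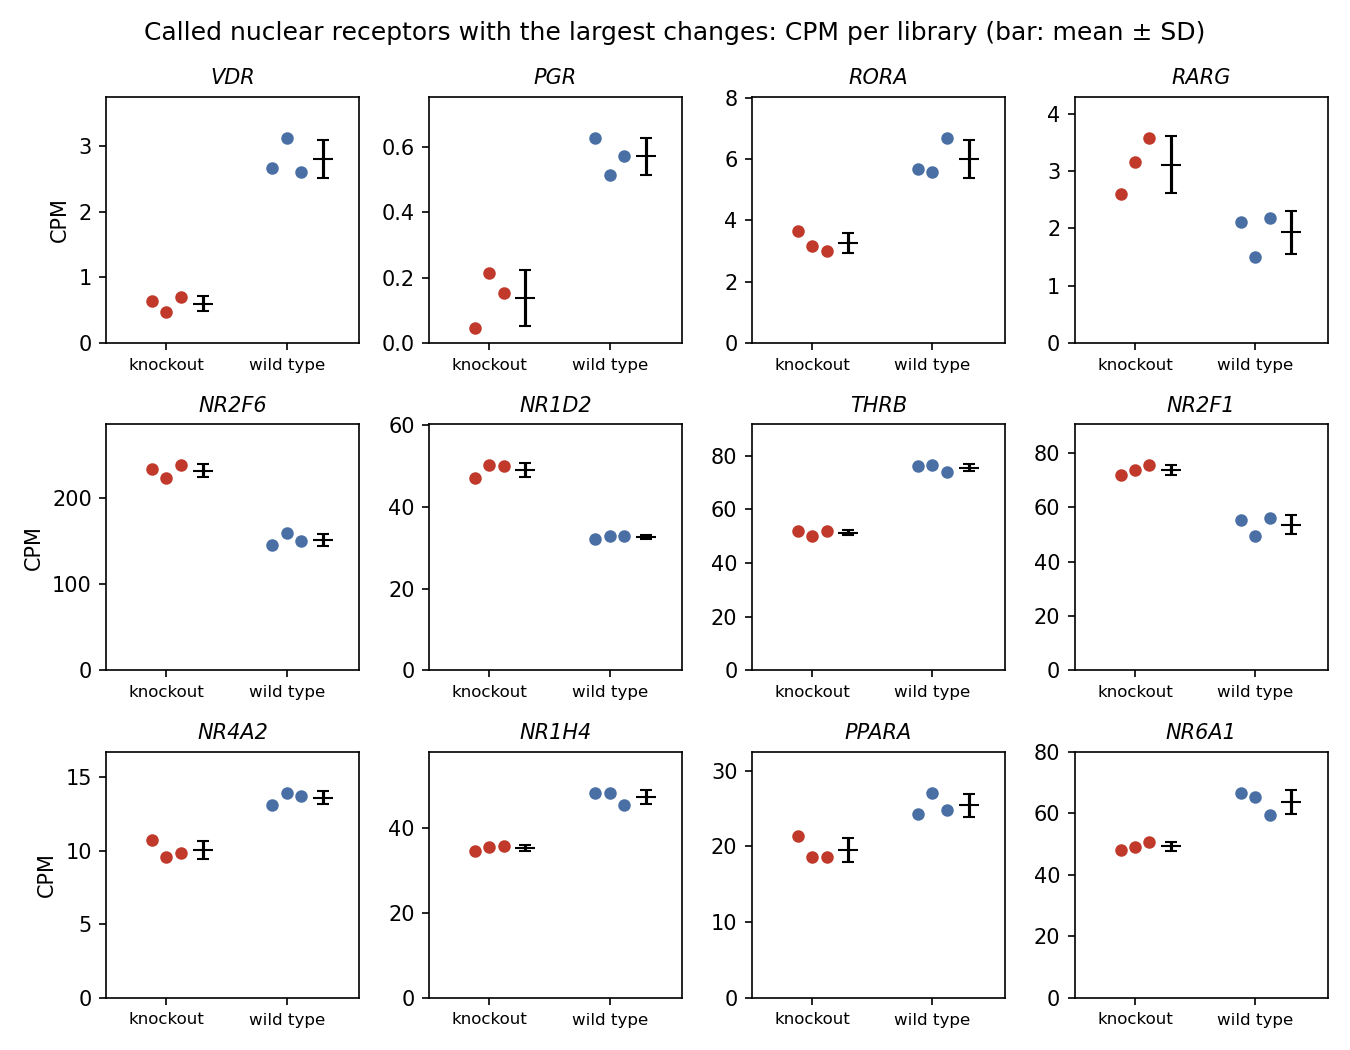
CPM in each library for the 12 called receptors with the largest absolute log2 fold change, with knockout points on the left, wild-type points on the right and bars for the mean ± SD of 3 libraries. The axes start at 0 and differ between panels. The groups do not overlap in any panel, and VDR and PGR are the least abundant of those that fell.

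Among steroid receptors, the glucocorticoid receptor gene NR3C1 fell, with 35.1, 33.4 and 37.7 CPM in knockout libraries, against 41.5, 44.1 and 44.8 CPM in wild-type libraries. Its log2 fold change was -0.29 (SE 0.05 and edgeR adjusted p = 4.1e-04), with neighbours at 0.07. NR3C2, the mineralocorticoid receptor gene, was called higher (0.36, SE 0.14 and edgeR adjusted p = 0.044), but its libraries overlapped, with 6.18, 7.65 and 6.28 CPM in the knockout and 5.03, 4.16 and 6.31 CPM in wild type. The call was lost with DESeq2 (adjusted p = 0.082), without wild-type replicate 2 (0.16) and without knockout replicate 1 (0.052), 2 (0.19) or 3 (0.059). Its neighbours on chromosome 4 had a median of 0.35, and with that shift removed NR3C2 was at 0.01. The progesterone receptor gene PGR was close to the detection limit, with 1, 5 and 4 counts in the knockout and 17, 12 and 16 in wild type. Its log2 fold change was -2.00 (SE 0.44 and edgeR adjusted p = 0.0017), and its count ratio of knockout over wild type was 0.244 (95% interval 0.110 to 0.492). The estrogen receptor genes were as scarce and were not called. ESR1 had 44 counts in the knockout and 35 in wild type, and ESR2 had 22 and 44. ESR1 shares 7936 bases with the more abundant SYNE1 on the opposite strand, which rose (0.11). Without knockout replicate 2, ESR2 was called lower (-1.72, edgeR adjusted p = 0.013); it overlaps SYNE2 on the opposite strand, which fell (-0.76).

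Of the 3 tested receptors of the circadian clock, NR1D2 rose, RORA fell and NR1D1 was not called. Over all tested genes, 60.1% were called. NR1D2, REV-ERB beta, had 47.0, 50.3 and 49.96 CPM in knockout libraries, against 32.1, 32.9 and 33.03 CPM in wild-type libraries. All knockout values lay far above the narrow wild-type range, or 0.59 on the log2 scale (SE 0.04 and edgeR adjusted p = 2.2e-07), with neighbours at 0.15. Its relative NR1D1, REV-ERB alpha, was less abundant and not called, at 5.52 ± 0.63 CPM in the knockout and 5.42 ± 0.86 CPM in wild type (SD, n = 3 each). RORA, which activates through the sites that REV-ERB represses, had 3.64, 3.16 and 3.01 CPM in the knockout, against 5.70, 5.58 and 6.71 CPM in wild type. Its log2 fold change was -0.88 (SE 0.12 and edgeR adjusted p = 5.2e-05), and its neighbours on chromosome 15 were at -0.13. Of the 2 NR1D2 windows in RefSeq, 1 held CACGTG, the one printed here. NR1D2 shares 1332 bases with NKIRAS1 on the opposite strand. NKIRAS1 was not called, at 23.9 CPM in the knockout and 22.8 CPM in wild type.

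Of 8 tested orphan receptors in the NR2, NR6, HNF4 and ERR branches, 3 rose and 2 fell (62.5% called, near the 60.1% of all tested genes). NR2F6, a COUP-TF relative, had 234, 224 and 238 CPM in knockout libraries, against 146, 159 and 150 CPM in wild-type libraries. Its log2 fold change was 0.61 (SE 0.04 and edgeR adjusted p = 3.6e-08), or 0.40 with the shift of its chromosome 19 neighbours (0.21) removed. NR2F1, COUP-TFI, had 72.0, 73.7 and 75.6 CPM in the knockout, against 55.5, 49.5 and 55.9 CPM in wild type, or 0.46 on the log2 scale (SE 0.05 and edgeR adjusted p = 3.7e-06), with neighbours at -0.11. NR2F2, COUP-TFII, was not called (-0.07, SE 0.05) with all libraries. It was called lower without wild-type replicate 3 (-0.12, edgeR adjusted p = 0.039) and relative to its neighbours (-0.18, edgeR adjusted p = 0.0059).

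NR2C2, the testicular receptor TR4, rose by a small amount, at 129 ± 3.08 CPM in the knockout and 115 ± 2.18 CPM in wild type (log2 fold change 0.16, SE 0.03), and lost the call relative to its neighbours (0.07, edgeR adjusted p = 0.097). NR2C2 shares 11141 bases with MRPS25 on the opposite strand, which was not called, at 99.7 CPM in the knockout and 99.2 CPM in wild type. NR2C1, the relative of NR2C2, was at 0.02 (SE 0.04). NR6A1, the germ cell nuclear factor known from embryonic cells, had 47.9, 49.0 and 50.8 CPM in knockout libraries, against 66.8, 65.2 and 59.4 CPM in wild-type libraries (log2 fold change -0.37, SE 0.05 and edgeR adjusted p = 2.9e-05). HNF4G, a paralogue of the hepatocyte regulator HNF4A, fell to 18.7 ± 0.27 CPM in the knockout, against 21.6 ± 0.49 CPM in wild type (log2 fold change -0.22, SE 0.05). HNF4A itself fell (-0.25, SE 0.03). ESRRA, which acts with PGC-1 coactivators on mitochondrial genes, was not called (0.11, SE 0.07).

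Of the immediate-early NR4A receptors, NR4A2 fell, with 10.7, 9.53 and 9.87 CPM in knockout libraries, against 13.1, 13.9 and 13.7 CPM in wild-type libraries (log2 fold change -0.44, SE 0.07 and edgeR adjusted p = 1.7e-04). NR4A1 was not called (0.18, SE 0.08 and edgeR adjusted p = 0.08) although all its knockout values exceeded its wild-type values. NR4A3 was scarce, with 75 counts in the knockout and 108 in wild type. NR0B2, or SHP, has no DNA-binding domain, represses other receptors and is induced by FXR. It was called higher (0.33, SE 0.13 and edgeR adjusted p = 0.038) on overlapping values of 8.55, 6.11 and 6.94 CPM in the knockout and 5.14, 5.75 and 6.21 CPM in wild type. The call was lost with DESeq2 (adjusted p = 0.093) and without wild-type replicate 1 (0.073) or 2 (0.073), or knockout replicate 1 (0.19) or 3 (0.066). NR0B2 lies wholly within the bounds of NUDC on the opposite strand, which fell (-0.42).

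Set beside their chromosome neighbours, 14 of the 22 called receptors had the sign of the neighbours' median, which ran from -0.33 to 0.35. The same share was not counted over all called genes, so 14 of 22 is not set against a background. With that shift removed, 20 receptors were called, 8 higher and 12 lower. RXRA, PPARA, NR3C2 and NR2C2 lost their calls, and NR1H3 and NR2F2 became called lower.

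Where a subfamily has several isotypes, their shares of the subfamily's summed CPM per kilobase do not depend on library scaling. The level of a share does depend on the transcript length taken, such as 9995 bases for PPARA and 2029 for PPARG. The same lengths were used in both groups. THRA made up 33.1%, 32.7% and 32.4% of thyroid hormone receptor mRNA in knockout libraries, against 21.4%, 22.8% and 21.0% in wild-type libraries. NR4A1 made up 37.2%, 38.1% and 37.7% of NR4A mRNA in the knockout, against 29.6%, 26.8% and 28.4% in wild type. PPARG made up 66.0%, 68.2% and 70.1% of PPAR mRNA in the knockout, against 63.2%, 59.8% and 58.7% in wild type. In each of these the knockout libraries lay wholly above the wild-type libraries. NR1D2 made up 82.5% ± 1.25 of REV-ERB mRNA in the knockout and 76.1% ± 3.16 in wild type, and NR3C1 81.0% ± 2.68 and 87.3% ± 2.21 of the corticoid receptors (SD, n = 3 each). RXRB was at 33.1% ± 0.68 of RXR mRNA in the knockout and 27.2% ± 0.54 in wild type. Of 25 shares in 10 subfamilies, 19 did not overlap between groups. The CPM of 65.8% of all tested genes did not overlap, but that is a measure of single genes. No background was computed for shares, so 19 of 25 is not set against one. These shares are not independent, since the isotypes of a subfamily of 2 mirror each other, and the share of RXRG rests on 4 counts in the knockout and 0 in wild type. Each of the 19 shares had p = 0.1 by an exact two-sided permutation test, the smallest that 3 against 3 can give. Their adjusted p from this test was at least 0.132 over the 25.

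**Figure D3:**
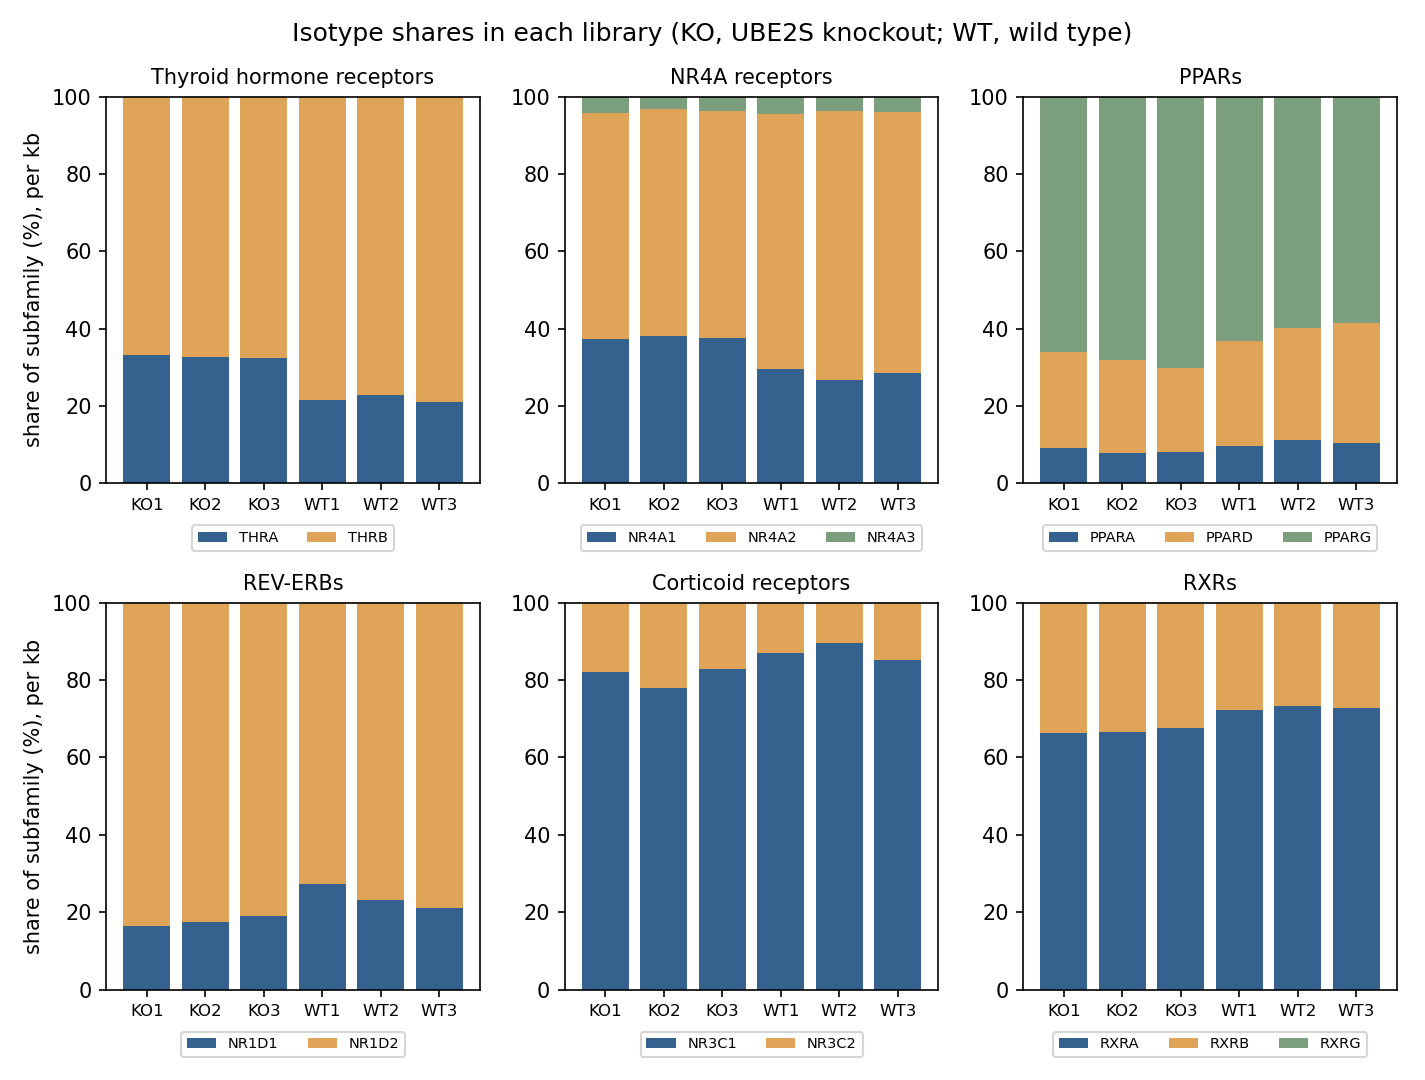
Shares of each isotype in its subfamily, in percent of the summed CPM per kilobase, for 3 knockout (KO) and 3 wild-type (WT) libraries. THRA lies between 32.4% and 33.1% in the knockout libraries and between 21.0% and 22.8% in the wild-type libraries.

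The receptors work through coregulators. Of 11 corepressor genes, 6 rose and 3 fell (81.8% called, against 60.1% of all tested genes), with a median log2 fold change of 0.12, against 0.00 over all tested genes. SIN3A, a scaffold of histone deacetylase complexes, rose (0.41, SE 0.03), as did LCOR (0.38, SE 0.03). TBL1X, a subunit of the NCOR complexes, fell (-0.56, SE 0.05) beside neighbours at -0.58, and TNIP1 (-0.25) and NCOR1 (-0.09) fell less. Of 17 coactivator genes, 4 rose, 7 fell and 6 were not called, with a median of 0.02, and the 64.7% called lay near the share over all tested genes. PPARGC1A, or PGC-1 alpha, a coactivator of fat oxidation and gluconeogenesis genes, fell to 3.60 ± 0.46 CPM in the knockout, against 5.63 ± 0.19 CPM in wild type (SD, n = 3 each). PPARGC1B (-0.53, SE 0.10) and the steroid receptor coactivator gene NCOA3 (-0.44, SE 0.04) fell too. The chromatin remodeller gene SMARCA4 (0.43, SE 0.04), the methyltransferase gene CARM1 (0.41, SE 0.06) and CREBBP (0.13, SE 0.05) rose. The libraries of CREBBP overlapped, with 119.7, 118.5 and 118 CPM in the knockout and 119, 104.4 and 101.4 CPM in wild type. Both SMARCA4 and CARM1 had neighbours at 0.23.

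Of 11 tested FXR target genes, 6 fell and 2 rose (72.7% called, against 60.1% of all tested genes, with a median of -0.21). KNG1, which encodes kininogen, fell to 33.2 ± 0.13 CPM in the knockout, against 69.5 ± 3.88 CPM in wild type. FGF19, the hormone that feeds back on bile acid synthesis, fell to 8.09 ± 0.36 CPM, against 15.8 ± 0.19 CPM, and the bile salt export pump gene ABCB11 (-0.71, SE 0.26) fell as well. FGB, the fibrinogen beta chain gene, rose to 1622 ± 24.1 CPM in the knockout, against 1016 ± 47.8 CPM in wild type (SD, n = 3 each), and the apolipoprotein gene APOC2 rose (0.32, SE 0.07). Of 11 tested PXR and CAR targets, 6 fell and 2 rose (72.7% called, median -0.33). CYP2B6, the classical CAR target, was scarce and fell (-2.14, SE 0.34). UGT1A1, which conjugates bilirubin, fell (-0.81, SE 0.12), as did the sulfotransferase gene SULT2A1 (-0.71, SE 0.05). The fetal enzyme gene CYP3A7 (0.67, SE 0.25), whose reads may be shared with its CYP3A paralogues, and the export pump gene ABCC2 (0.37, SE 0.03) rose, the last beside neighbours at 0.40. The libraries of CYP3A7 overlapped, with 2.55, 1.54 and 2.16 CPM in the knockout and 1.07, 1.84 and 1.07 CPM in wild type.

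Of 18 tested PPAR targets, 7 rose and 5 fell (66.7% called, against 60.1% of all tested genes, with a median of 0.07). The fatty acid importer gene CPT1A (0.57, SE 0.04) and VNN1 (0.56, SE 0.13) rose. CREB3L3 (-1.21, SE 0.07), PLIN2, which coats lipid droplets (-1.06, SE 0.03), and the fatty acid binding protein gene FABP1 (-0.51, SE 0.05) fell. CREB3L3 had neighbours at -0.54. Of 10 tested LXR targets, 4 rose and 4 fell (80% called, median -0.02). The phospholipid transfer protein gene PLTP rose to 10.2 ± 0.11 CPM in the knockout, against 2.82 ± 0.40 CPM in wild type (SD, n = 3 each), and APOE (0.64, SE 0.03) and the desaturase gene SCD (0.25, SE 0.02) rose. MYLIP, an E3 ligase for the LDL receptor (-0.78, SE 0.08), the sterol transporter gene ABCG8 (-0.54, SE 0.20) and LPCAT3 (-0.46, SE 0.05) fell.

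Of 12 tested glucocorticoid targets, 4 rose and 6 fell (83.3% called, against 60.1% of all tested genes, with a median of -0.01). The transcription factor gene ZBTB16 (-1.28, SE 0.09), the tyrosine aminotransferase gene TAT (-0.93, SE 0.14) and ERRFI1 (-0.60, SE 0.03) fell. The phosphatase gene DUSP1 (0.72, SE 0.04), the kinase gene SGK1 (0.45, SE 0.03) and PER1 (0.19, SE 0.05) rose. Of 12 tested retinoic acid targets and retinoid handling genes, 3 rose and 5 fell (66.7% called, median -0.06). CYP26A1, which degrades retinoic acid (0.99, SE 0.28), and CYP26B1 (0.34, SE 0.05) rose. RARRES2 (-1.26, SE 0.30), the retinol dehydrogenase gene RDH10 (-0.82, SE 0.07) and the transglutaminase gene TGM2 (-0.71, SE 0.04) fell.

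Only 3 of 8 vitamin D and thyroid hormone targets could be tested, and all 3 rose. Over all tested genes, 60.1% were called and 29.4% were called higher. The 3 were the corepressor gene HR (1.77, SE 0.32), the vitamin D activating enzyme gene CYP27B1 (0.70, SE 0.22) and the malic enzyme gene ME1 (0.35, SE 0.03), with neighbours of ME1 at 0.28. The list does not separate induced from repressed targets. The others were too scarce to be tested. The vitamin D target CYP24A1 had 2 counts in the knockout and 9 in wild type. DIO1 had 36 and 16 counts, THRSP 2 and 0, and TRPV6 and THBD 0 in every library. Of 16 tested clock genes, 5 rose and 4 fell (56.2% called, median -0.04). NPAS2, a partner of BMAL1, fell to 28.4 ± 0.79 CPM in the knockout, against 51.1 ± 3.88 CPM in wild type (SD, n = 3 each), and the repressor genes NFIL3 (-0.63, SE 0.04) and BHLHE40 (-0.59, SE 0.06) fell. BHLHE41 (0.46, SE 0.16), DBP (0.42, SE 0.15) and the kinase gene CSNK1D (0.23, SE 0.03) rose. ARNTL, which encodes BMAL1, was not called (-0.26, SE 0.14). Of 10 estrogen receptor and ERR targets, 3 rose and 2 fell (50% called, median 0.02). The scaffold gene PDZK1 (0.79, SE 0.04), CYCS (0.22, SE 0.06) and CTSD (0.12, SE 0.04) rose. SDHB (-0.42, SE 0.05) and XBP1 (-0.30, SE 0.03) fell. Among the other 9 nuclear receptors, HNF4A fell, NR5A2 rose (0.19, SE 0.04) and 6 could not be tested. Neighbours had the sign of the gene and a median past 0.3 in size for FGB (0.36), ERRFI1 (-0.33), SCD (0.39), LCOR (0.34) and CYP2B6 (-0.36) as well. In every list some targets rose and others fell, apart from the 3 vitamin D and thyroid hormone targets, and no list was tested as a set.

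**Figure D4:**
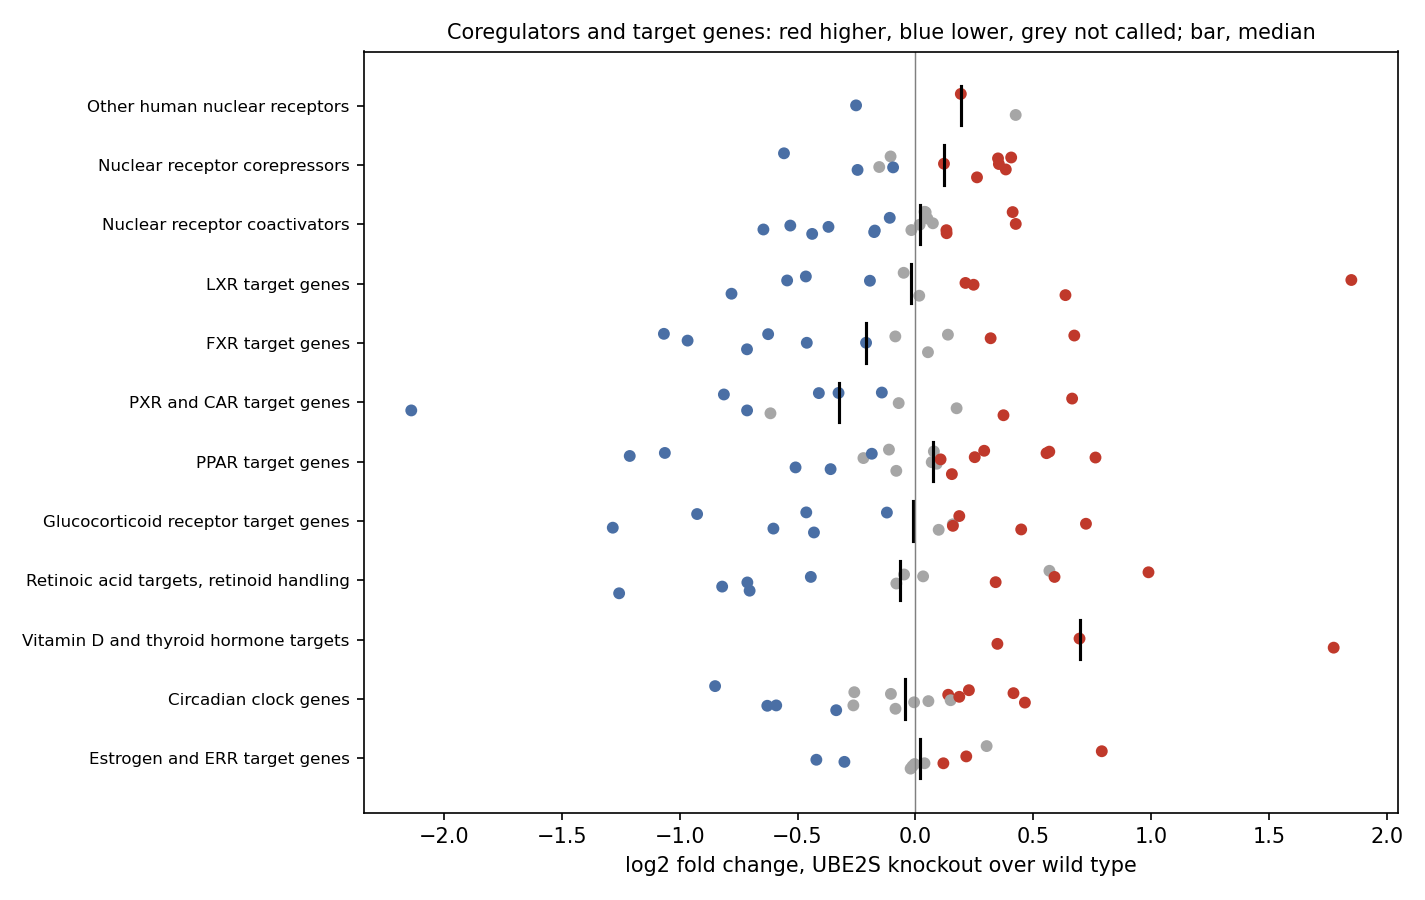
Log2 fold changes, knockout over wild type, of tested coregulators, other nuclear receptors, target genes and clock genes, 1 point a gene. Red points were called higher, blue lower and grey not called, and the black bar is the list's median. FXR targets (median -0.21) and PXR and CAR targets (median -0.33) have the lowest medians, and both hold genes on each side of 0.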

How the data were processed

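Poly(A) RNA of 6 Huh7 libraries was sequenced, and titles gave the groups. The tools named, without roles, in the submitters' processing notes are DESeq2, StringTie 1.3.1, HISAT2 and Bowtie2 2.2.8; build, annotation and strand use are not stated there. The authors deposited 1 table of estimated counts, not normalized, which were rounded before testing. Counts of 7 receptors held decimals in some library.

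Knockout and wild type were compared in R 4.3.3 by edgeR 4.0.16 (filterByExpr with a minimum count of 10, TMM scaling, quasi-likelihood F test, no covariate), with Benjamini-Hochberg adjustment over 13265 genes. Standard errors came from the fold change and its F statistic. The script was first tested on simulated data. DESeq2 1.42.0 and limma-voom (limma 3.58.1) were alternatives, with others listed in the closing section. Of 20289 identifiers, 99.4% matched GENCODE release 29, which gave GRCh38 positions, transcript lengths and neighbours. The shift of neighbours was the median log2 fold change of the 25 tested genes on each side, removed through the offset of the knockout libraries.

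The receptors and gene lists were chosen with earlier results of these data known, from textbook knowledge. Every receptor is accounted for. From each other list up to 3 called genes per direction with the largest change were named; a few genes that this rule takes are not reported here. ARNTL, KDR, CD3E, KRT7, AFP, LYZ, LUM, SPP1 and the genes that overlap receptors were named after their values were seen. The same holds for CYP24A1, DIO1, THRSP, TRPV6 and THBD. Intervals cover counting error alone.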

Additional observations from a re-analysis of the deposited data

How the results depend on the processing

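The alternatives were RLE and upper-quartile scaling, no filter and a filter of 1 CPM in 3 libraries, limma-voom, DESeq2, leaving out single libraries, a replicate block, an adjusted p below 0.01, and removal of the shift of chromosome neighbours. Over these, 8 to 10 receptors were called higher and 11 to 14 lower, and 17 of the 22 called receptors kept their direction and call wherever they were tested. The exceptions were RXRA, PPARA, NR2C2, NR3C2 and NR0B2. RXRA was at 0.0071 on the log2 scale with the shift of neighbours removed, where RARB (-0.018) and NR1D1 (-0.042) also changed sign without a call on either side. With single libraries left out, NR1D1 ranged from -0.073 without wild-type replicate 3 to 0.167 without wild-type replicate 1, and was at -0.055 without knockout replicate 3; the cause was not tested. UBE2S was called lower throughout.

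Same-numbered libraries did not deviate together (correlations of -0.0105 to 0.00568), so the numbers were not taken as pairs. With the replicate block, 10 receptors were called higher and 13 lower, 3872 genes rose and 4041 fell in all, and UBE2S was at -2.29. Counts under about 100 in a group, as for NR1I3, ESR1, ESR2, PGR and VDR in the knockout, leave wide intervals.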
